A study of Mus musculus with 9 samples.

Results

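Galectins are proteins that bind galactose-containing glycans, and this account covers 5 genes in bone marrow stroma: Lgals1, Lgals3, Lgals8 and Lgals9, which encode galectins, and Lgals3bp, which encodes a secreted glycoprotein bound by galectins. They were chosen by name, with earlier results of these data known. Each had 1 probe set carrying no other gene symbol, so that 5 of 19938 genes tested are described. The cells were CXCL12-abundant reticular (CAR) cells, stromal cells that make the chemokine Cxcl12 and support blood stem cells and developing B cells. All mice carried green fluorescent protein (GFP) in 1 Cxcl12 allele (Cxcl12+/gfp), so that controls also lacked 1 normal copy, and cells bright for GFP and negative for blood lineage markers had been sorted. Mouse Gene 1.0 ST arrays measured RNA of 5 samples after treatment with the cytokine G-CSF (granulocyte colony-stimulating factor, 250 µg/kg per day) and of 4 control samples after phosphate-buffered saline (PBS), both for 5 days. The sources used here do not state strain, age, sex or whether mice were pooled.

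Galectins have no signal peptide and leave the cell by an unusual route; outside it they cross-link glycoproteins on cell surfaces and matrix, and inside it some bind glycans exposed on damaged vesicles. Lgals1 encodes a galectin that pairs with itself, and in marrow it is known as the stromal ligand of the pre-B cell receptor. The product of Lgals3 is the chimera-type galectin with a collagen-like tail, also called Mac-2 from its abundance in macrophages, while those of Lgals8 and Lgals9 join a pair of sugar-binding domains in tandem. What a galectin can bind depends on branching and sialic acid capping of the glycans on its partners.

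Several features of the arrays bear on the values. On the leading principal component (34.9% of variance) the arrays formed 2 sets: set 1 held G-CSF replicates 1 to 3 and PBS replicates 1 and 2, and set 2 held G-CSF replicates 4 and 5 and PBS replicates 3 and 4. No label names this split, and PBS replicate 3 stood apart from all other arrays on it. The source names of 4 of the 5 G-CSF samples (all but replicate 1) carry an Hspa9+/- genotype, and those of all samples name pre-B colonies, against the titles, which were followed. As a check of the sorted cell type, the sort gene Cxcl12 was at 11.99 ± 0.07 in G-CSF arrays and 12.35 ± 0.11 in PBS arrays (log2 intensity, mean ± SD, n = 5 and 4), and Lepr, the leptin receptor, at 11.33 ± 0.26 and 11.55 ± 0.21. Of the 12 CAR stroma markers, 6 fell (Kitl, Ebf3, Il7, Vcam1, Adipoq and Lpl) and 0 rose, against 0.877% of all probe sets fallen. The same 6 fell without PBS replicate 3. Without PBS replicate 1, PBS replicate 2 or G-CSF replicate 1, 4 fell (Il7, Vcam1, Adipoq and Lpl), and without any other single array 5 fell. The median change of the 12 markers was -0.70. Their mean was 9.96 to 9.99 in G-CSF arrays, against 10.60 to 10.83 in PBS arrays, without overlap. Levels below are log2 intensities, whose scale differs between probe sets, so levels of different genes are not compared. Changes are the G-CSF mean less the PBS mean with the standard error (SE) of limma, a linear model fitted to all 21789 probe sets tested.

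None of the 5 genes passed the test after G-CSF (0 of 5 at a Benjamini-Hochberg adjusted p under 0.05 in limma, against 1.62% of all probe sets tested, 0.743% up and 0.877% down). Lgals1 and Lgals3 had the largest differences of the 5, both toward higher levels in G-CSF arrays, Lgals3bp had a smaller one toward lower levels, and Lgals8 and Lgals9 had values near 0. At an unadjusted p under 0.05, 2 of the 5 (Lgals1 and Lgals3) and 9.22% of all probe sets passed. For 0 of the 5 did the G-CSF arrays all lie on one side of the PBS arrays, against 4.65% of all probe sets. The median change of the 5 was 0.17, against 0.01 over all genes tested.

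Lgals1 was at 9.31, 9.61, 9.65, 8.54 and 8.57 in G-CSF replicates 1 to 5, against 8.70, 9.09, 6.74 and 8.0 in PBS replicates 1 to 4. The groups overlapped, since G-CSF replicates 4 and 5 lay below PBS replicates 1 and 2, while PBS replicate 3 lay far below every other array. The means were 9.14 ± 0.55 in G-CSF arrays and 8.13 ± 1.04 in PBS arrays. This gave a change of 1.00 (SE 0.42, 95% interval 0.09 to 1.92), a 2.00-fold difference that did not pass in limma (adjusted p = 0.456). Without PBS replicate 3 the change was 0.54 (adjusted p = 0.617), so the size of the difference depended on that array.

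The position of the Lgals1 arrays followed the array sets as well as the treatment. Its level was 9.27 ± 0.39 over the 5 arrays of set 1 and 7.96 ± 0.86 over the 4 arrays of set 2. Within each set every G-CSF array lay above every PBS array. The change was 0.63 in set 1 (means 9.53 and 8.90) and 1.18 in set 2 (means 8.55 and 7.37), where PBS replicate 3 is 1 of 2 controls; adjusted p was 0.285 and 0.412, where 0.927% and 0.271% of probe sets passed. With the set as a block the change was 0.88 (SE 0.24, adjusted p = 0.0818 in limma). With the block and without PBS replicate 3, a fit chosen after seeing the data, it was 0.60 (adjusted p = 0.0507). Lgals1 did not pass the threshold in either fit. The sets were drawn from these same array values, so p-values with the block, here and below, may be too small. Separation in the same direction within both sets was found for 9.58% of all probe sets, and 2.74% of probe sets passed with the block.

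Lgals3 was at 7.23, 6.96, 7.48, 6.65 and 6.55 in G-CSF replicates 1 to 5, against 6.16, 6.90, 5.79 and 6.10 in PBS replicates 1 to 4. All G-CSF arrays lay above 3 of the 4 PBS arrays, and PBS replicate 2 lay among the G-CSF arrays. Mean levels were 6.97 ± 0.39 in G-CSF arrays and 6.24 ± 0.47 in PBS arrays, a change of 0.73 (SE 0.25, 95% interval 0.20 to 1.27) or 1.66-fold. It had the smallest p of the 5 genes but did not pass in limma (adjusted p = 0.252). The change was close in both sets, at 0.69 in set 1 and 0.65 in set 2, with every G-CSF array above every PBS array of its set. Such separation was found for 9.58% of all probe sets. With the set as a block it was 0.67 (SE 0.17, adjusted p = 0.0675). Leaving out single arrays gave changes of 0.59 (without PBS replicate 3) to 0.95 (without PBS replicate 2), with adjusted p of 0.0824 to 0.460.

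Neutrophil transcripts were higher alongside Lgals1 and Lgals3, which myeloid cells also express, while markers of several other cell types were lower. All 14 neutrophil markers measured had higher means in G-CSF arrays. Of the 14, 2 rose in limma, Mmp9 (1.64, adjusted p = 0.0257) and Csf3r (0.94, adjusted p = 0.0262), against 0.743% of all probe sets. Mmp9 alone passed without PBS replicate 3 or G-CSF replicate 5, and Csf3r alone without PBS replicate 4. None passed without PBS replicate 1 or G-CSF replicate 1, 3 or 4. Without PBS replicate 2, 8 of the 14 rose, and without G-CSF replicate 2, 3 rose (Lcn2, Csf3r and Cxcr2). The mean of the 14 was 8.72 to 9.50 in G-CSF arrays, against 7.62 to 9.13 in PBS arrays; Elane, a granule protease, was at 8.17 ± 0.40 and 6.98 ± 1.15, and S100a8 at 12.51 ± 0.31 and 11.66 ± 0.72. The neutrophil mean differed by 0.83 in set 1 and 1.31 in set 2, and its part in the Lgals1 and Lgals3 values was not tested. Of 13 monocyte and macrophage markers with a probe set, 0 rose and 1 fell, the adhesion molecule Vcam1, which stroma also makes in quantity, against 0.877% of all probe sets fallen; without PBS replicate 3, 3 fell (Vcam1, Mrc1 and C1qb). Their mean was 5.64 to 6.13 in G-CSF arrays and 5.70 to 6.30 in PBS arrays. Among defining markers of macrophages, Adgre1 was at 3.78 ± 0.31 and 3.85 ± 0.30, Csf1r at 5.41 ± 0.37 and 5.18 ± 0.25, and Cd68 at 7.19 ± 0.26 and 6.81 ± 0.69. The mean of 7 erythroid markers, all with lower means in G-CSF arrays, was 4.65 to 5.05 in G-CSF arrays, against 5.18 to 6.15 in PBS arrays. Of the 7, 2 fell (Car1 and Tfrc), and 0 passed without PBS replicate 1 or 4 or G-CSF replicate 1. The mean of 9 B cell markers differed by -0.61, and 3 of the 9 fell (Cd79a, Ms4a1 and Ebf1). Over all probe sets 0.877% fell. Ebf1 was the only B cell marker whose mean log2 level reached 6. It was also the only B cell call left without PBS replicate 1 or 4 or G-CSF replicate 1, 2, 3 or 4. Whether the Ebf1 transcript came from B cells or from stroma was not tested. Mean differences were -0.77 for CAR stroma, -0.94 for erythroid, -0.57 for megakaryocyte, -0.05 for endothelial, -0.08 for osteoblast and 0.16 for T and natural killer cell markers, and of the last 4 lists only the osteoblast list held a call (Col1a1, which rose). In bulk RNA of this kind, a different number of cells of a type and a different amount of RNA per cell cannot be told apart.

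**Figure D1:**
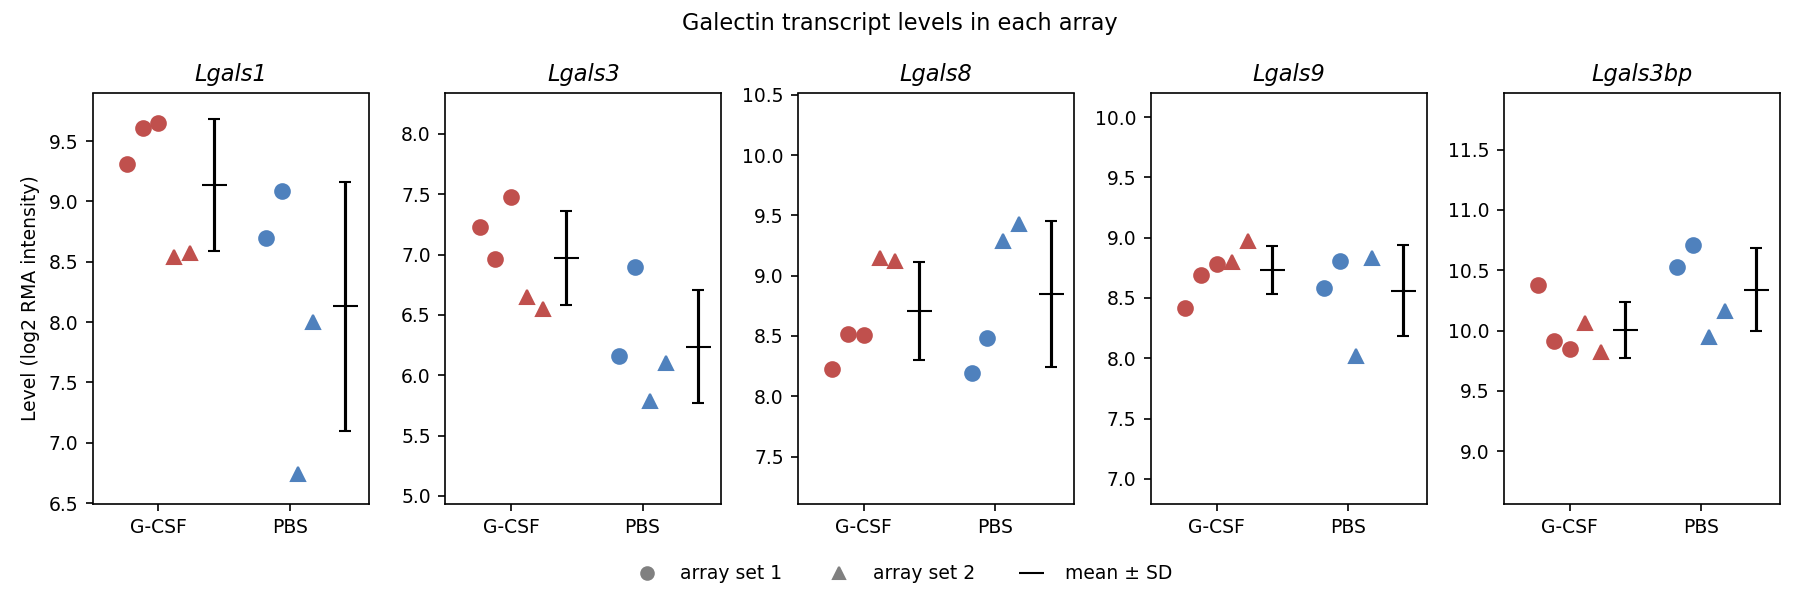
Level of each of the 5 genes in every array (y axis, log2 RMA intensity, each panel spanning the same range), with G-CSF arrays left of PBS arrays, circles for array set 1, triangles for set 2 and black bars for mean ± SD (n = 5 and 4). Lgals1 and Lgals3 are higher in G-CSF arrays within each set, whereas Lgals8 separates the sets (8.39 in set 1, 9.25 in set 2); within set 2 both G-CSF arrays of Lgals8 lie below both PBS arrays.

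Lgals8, whose product is known in human cells to mark damaged vesicles for autophagy, was at 8.23, 8.52, 8.51, 9.15 and 9.12 in G-CSF replicates 1 to 5, against 8.19, 8.48, 9.29 and 9.43 in PBS replicates 1 to 4. Over all arrays the groups were interleaved; within set 2 both G-CSF arrays lay below both PBS arrays, and within set 1 they overlapped. Mean levels were 8.70 ± 0.41 and 8.85 ± 0.60, a change of -0.14 (SE 0.28, 95% interval -0.75 to 0.47, adjusted p = 0.977 in limma) that turned sign with the arrays used, at 0.05 without PBS replicate 4. What separated the arrays was the set, with 8.39 ± 0.16 in set 1 and 9.25 ± 0.14 in set 2, and the highest array of set 1 (8.52) below the lowest of set 2 (9.12). Lgals1 differed between sets in the opposite sense, by 1.31 (set 1 minus set 2) against -0.86 for Lgals8. The sets were drawn from the values of all tested probe sets, these included, so no test of the difference is given. With the set as a block the SE of the Lgals8 change was 0.13 and the change -0.06.

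Lgals9, whose product is a ligand of the T cell receptor molecule Tim-3, was at 8.42, 8.69, 8.78, 8.80 and 8.97 in G-CSF replicates 1 to 5, against 8.58, 8.81, 8.02 and 8.83 in PBS replicates 1 to 4. PBS replicate 3 was the lowest array, and the other PBS arrays lay within the range of the G-CSF arrays. The change was 0.17 (8.73 ± 0.20 and 8.56 ± 0.38, SE 0.19, 95% interval -0.24 to 0.58, adjusted p = 0.925 in limma). Without PBS replicate 3 it was -0.01, and in set 1, which lacks that array, -0.07. The change of 0.46 in set 2 therefore rests on 1 control array.

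Lgals3bp, which belongs to the scavenger receptor cysteine-rich family and also binds collagens and fibronectin, was at 10.38, 9.91, 9.85, 10.06 and 9.82 in G-CSF replicates 1 to 5, against 10.53, 10.71, 9.95 and 10.16 in PBS replicates 1 to 4. All but 1 of the G-CSF arrays lay below PBS replicates 1, 2 and 4. The groups overlapped through G-CSF replicates 1 and 4 and PBS replicates 3 and 4. Means were 10.01 ± 0.23 in G-CSF arrays and 10.34 ± 0.35 in PBS arrays, a change of -0.33 (SE 0.19, 95% interval -0.74 to 0.07, adjusted p = 0.698 in limma). In contrast to Lgals1 and Lgals9, the difference was larger without PBS replicate 3, at -0.46 (adjusted p = 0.348). It was -0.57 in set 1 and -0.11 in set 2. The sign was negative in every fit that left out 1 array, from -0.46 to -0.21 (without PBS replicate 2).

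**Figure D2:**
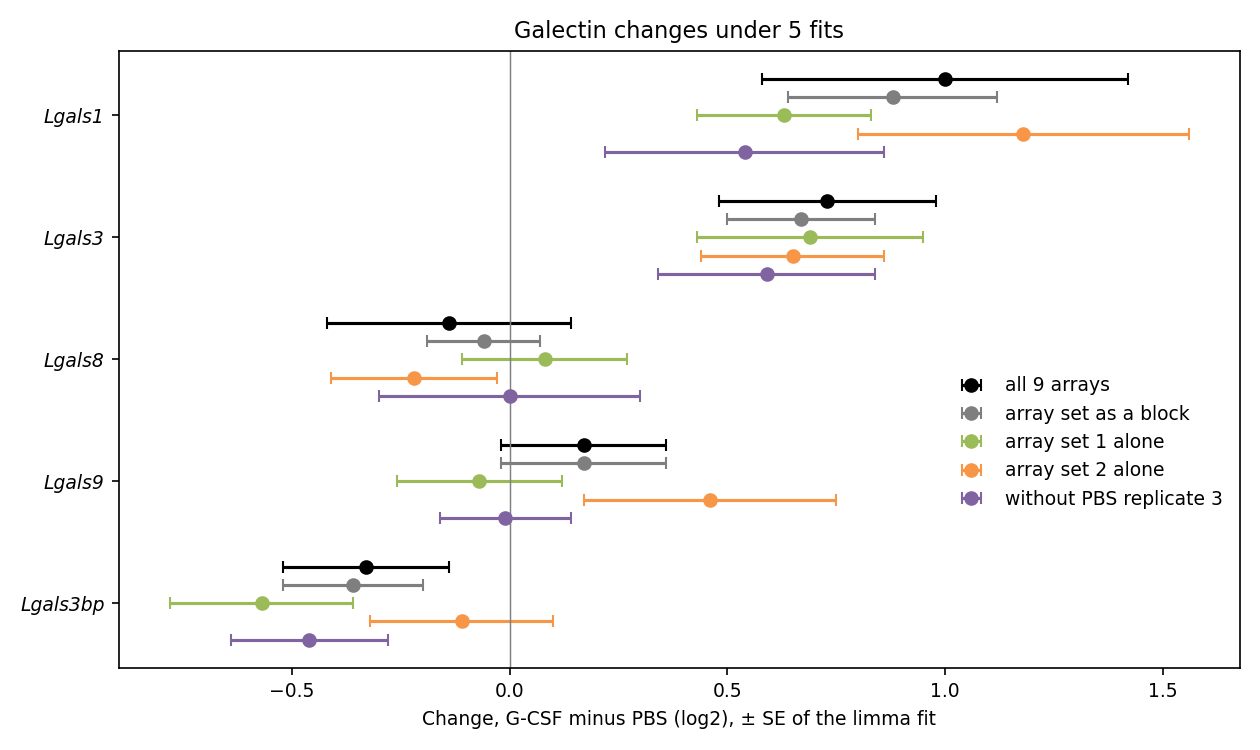
Change of each gene (x axis, log2, G-CSF minus PBS; points with bars of ± SE from limma) in 5 fits: all 9 arrays, the array set as a block, each set alone, and without PBS replicate 3. Lgals1 and Lgals3 are positive in all 5 (0.54 to 1.18 and 0.59 to 0.73), Lgals3bp is negative in all 5, and Lgals8 and Lgals9 lie around 0.

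The windows around the transcription starts are shown for 3 of the genes because Lgals9 and Lgals3bp are known interferon-inducible genes and Lgals3 had the smallest p of the 5. Promoter sequences of RefSeq (build GRCm38.p6), 250 bases before to 50 bases after a start, matched 4 of the 5 genes: Lgals3 at chr14:47373610-47373909 (plus strand), Lgals8, Lgals9 at chr11:78984875-78985174 (minus strand) and Lgals3bp at chr11:118401910-118402209 (minus strand). Motifs searched on both strands were TTCNNNGAA (STAT factors, through which G-CSF signals), GAAANNGAAA and GAAANNNGAAA (interferon response elements), TGANTCA (AP-1) and GGGCGG (GC box), and capitals mark every match. The form with a gap of 3 bases was chosen after the Lgals3bp window had been seen.
Lgals3: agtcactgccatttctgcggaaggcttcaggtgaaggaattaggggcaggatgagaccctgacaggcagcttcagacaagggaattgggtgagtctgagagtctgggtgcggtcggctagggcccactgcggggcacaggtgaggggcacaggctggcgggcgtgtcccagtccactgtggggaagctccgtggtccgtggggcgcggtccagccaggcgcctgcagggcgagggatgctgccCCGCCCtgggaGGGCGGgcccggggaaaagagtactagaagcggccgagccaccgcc
Lgals9: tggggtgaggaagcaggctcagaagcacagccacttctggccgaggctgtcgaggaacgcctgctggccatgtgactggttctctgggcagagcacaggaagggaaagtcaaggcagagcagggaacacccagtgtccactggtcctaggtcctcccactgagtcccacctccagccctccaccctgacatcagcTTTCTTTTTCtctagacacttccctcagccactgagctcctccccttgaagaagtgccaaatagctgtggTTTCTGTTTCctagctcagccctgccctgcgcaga
Lgals3bp: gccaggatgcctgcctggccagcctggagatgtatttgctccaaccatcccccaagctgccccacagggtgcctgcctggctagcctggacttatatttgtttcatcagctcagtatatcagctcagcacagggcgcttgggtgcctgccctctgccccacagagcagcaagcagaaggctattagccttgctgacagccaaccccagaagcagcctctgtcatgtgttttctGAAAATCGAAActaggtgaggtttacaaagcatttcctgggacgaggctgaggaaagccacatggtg
In the Lgals3 window only the GC box matched, 2 times, a motif held by 35.7% of all 32851 windows. The Lgals9 window held GAAANNGAAA 2 times on the minus strand of the window, which 3.44% of windows hold at least once, and that of Lgals3bp held GAAANNNGAAA 1 time, beginning 17 bases before the start (2.75% of windows). Neither TTCNNNGAA (8.30% of windows) nor TGANTCA (7.81%) was found in the 4 windows, and that of Lgals8 held none of the 5 motifs. These matches describe letters and not bound sites.

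The genes whose profiles over the 9 arrays were most like those of Lgals1 and Lgals3, the members whose SD over all arrays reached 0.5, were found by the root mean square difference between centred log2 profiles among 18612 named genes. For Lgals1 (SD 0.91) they were Rpl34, a protein of the large ribosomal subunit, at 0.12, Taf10, a subunit of the general transcription factor TFIID, at 0.20, and Arih2, a ubiquitin ligase, at 0.25. All 3 were lowest in PBS replicate 3, as Lgals1 was, and none passed the test (changes of 0.94, 0.76 and 0.88, adjusted p of 0.452, 0.728 and 0.578 in limma). Arih2 has a second probe set, with a change of 0.29. For Lgals3 (SD 0.55) the closest were Ttyh2, a membrane protein of the tweety family, at 0.17, Smap2, an Arf GTPase-activating protein, at 0.20, and Zfp281, a zinc finger transcription factor, at 0.21. Ttyh2 had a change of 0.81 (adjusted p = 0.104) and Smap2 of 0.75 (adjusted p = 0.130), both passing with the set as a block (adjusted p of 0.00890 and 0.0270), unlike Lgals3 and unlike Zfp281, which had a change of 0.49 (adjusted p = 0.551, and 0.156 with the block). These likenesses are descriptions over arrays that share the treatment and the sets.

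**Figure D3:**
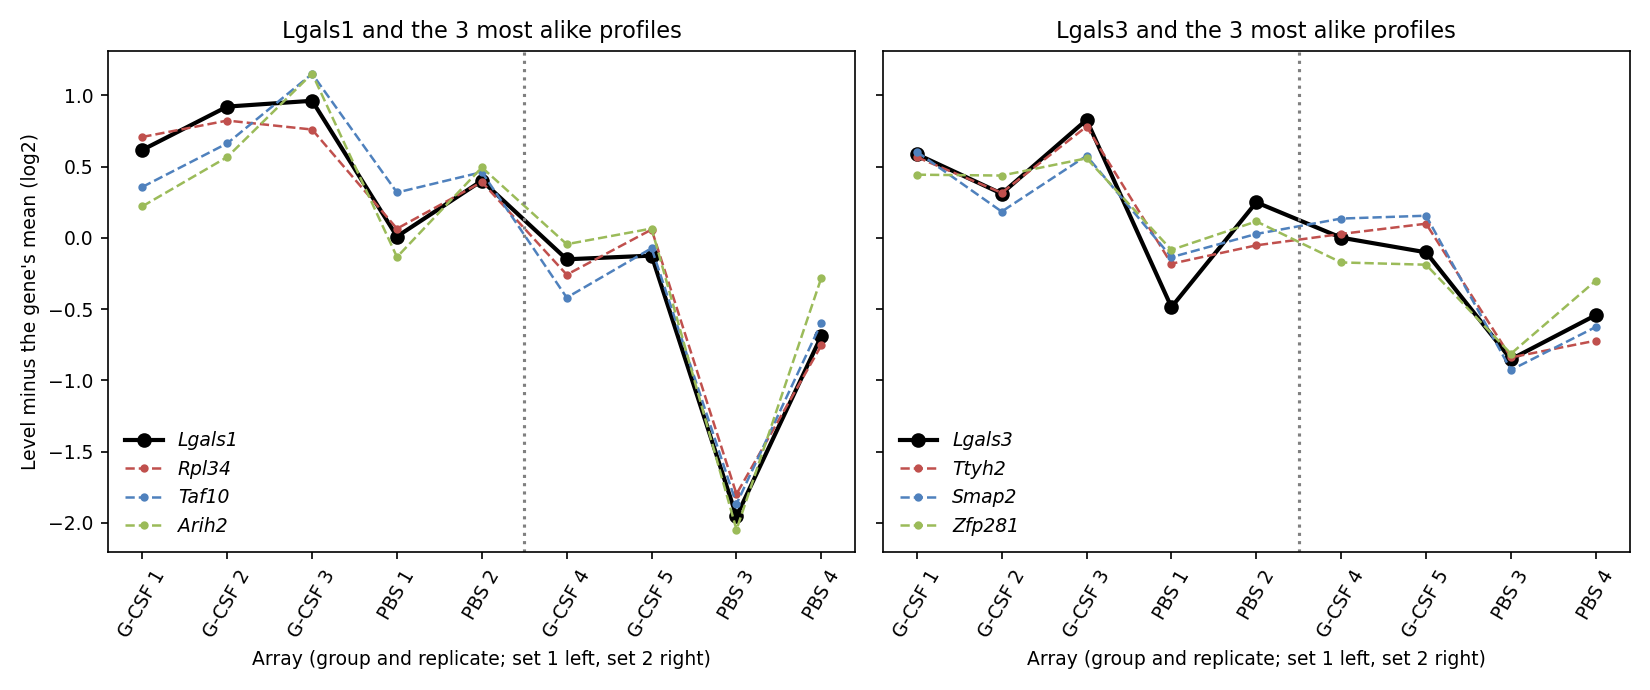
Level of Lgals1 (left) and Lgals3 (right) and of the 3 genes with the most alike profiles, each minus its own mean over the 9 arrays (y axis, log2), with the arrays on the x axis ordered by set and, within a set, G-CSF before PBS. All lines of the left panel drop to their lowest value in PBS replicate 3, and the lines of the right panel follow both treatment and set.

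Of the other galectin genes, 5 of the 6 listed had a probe set of their own, and 0 of the 5 passed. Lgals2, a galectin of the gut, was the one with the largest difference, at 4.59 to 5.86 (median 5.34) in G-CSF arrays and 5.42 to 6.64 (median 6.05) in PBS arrays. The change was -0.77 (SE 0.28, adjusted p = 0.309 in limma), -1.20 in set 1 and -0.34 in set 2, with every G-CSF array below every PBS array of its set. Lgals12 also separated within both sets, toward higher levels in G-CSF arrays. Separation in the same direction within both sets was found for 9.58% of all probe sets. Lgals4 (0.00), Lgals7 (-0.09), Lgals12 (0.10), a galectin of fat cells, and Lgalsl (0.15) had changes within 1 SE of 0. Their intensities carry no detection call, so a low level was not called absence.

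Among enzymes that build or cap the glycans galectins bind, 3 that add a branch, a bisecting sugar or galactose rose and 2 sialyltransferases fell. Of the 25 with a probe set, 3 were up and 2 down past the threshold, and 20 did not pass (20% called, against 1.62% of all probe sets). The median change was 0.03, against 0.01 over all genes. Among bright probe sets (mean log2 at least 6), 4 of 17 enzymes were called, against 299 of 8492 probe sets. The list was chosen with earlier results of these data known, so its share of calls is a description and no test of the enzymes as a set. Gcnt2, which adds branches to poly-N-acetyllactosamine chains, a favoured ligand of galectins, rose 2.70-fold, to 8.55 ± 0.27 in G-CSF arrays, against 7.11 ± 0.17 in PBS arrays (change 1.43, SE 0.17, adjusted p = 0.00101 in limma). B4galt5, a galactosyltransferase acting mainly on glycolipids, rose by 0.81 (adjusted p = 0.0367), and Mgat3, which adds the bisecting N-acetylglucosamine of N-glycans, by 0.70 (adjusted p = 0.0224). Mgat3 was dim, at 5.63 ± 0.15 in G-CSF arrays and 4.93 ± 0.11 in PBS arrays, near the median level of the arrays (5.12 to 5.22). It was not among the bright probe sets. Both sialyltransferases that fell cap galactose: St3gal1, of O-glycans, fell 2.18-fold (7.82 ± 0.21 and 8.95 ± 0.26, adjusted p = 0.00448), and St3gal6 fell by 0.65 (adjusted p = 0.0344). A second, dimmer probe set of St3gal1 was at 0.04 (adjusted p = 0.993). St6gal1, whose sialic acid cap blocks binding by the product of Lgals1, had a change of 0.49 (adjusted p = 0.323), and Mgat5, which makes the branched N-glycans bound by that of Lgals3, of 0.45 (adjusted p = 0.424). All G-CSF arrays lay above all PBS arrays for 4 of the 25 enzymes (Gcnt2, Mgat3, B4galt5 and Mgat5, which was not called). They lay below for 2 (St3gal1 and St3gal6). Over all probe sets, 4.65% separated in either direction. Marker means moved with the groups here too (neutrophil 1.06, CAR stroma -0.77 and erythroid -0.94), and their part in these calls was not tested. The calls of Gcnt2 and St3gal1 held whichever array was left out. The Mgat3 call did not survive leaving out PBS replicate 1 or 2 or G-CSF replicate 1, 4 or 5 (adjusted p of 0.0564 to 0.0717), nor did those of St3gal6 and B4galt5 survive leaving out any array except PBS replicate 3 (0.0627 to 0.105 and 0.0525 to 0.0935).

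Partner proteins were then examined by list. Among galectin partners of stroma, matrix and vessels, 1 of 27 rose (Lama4, a laminin chain, 0.85, adjusted p = 0.0292 in limma), 0 fell and 26 did not pass, against 1.62% of all probe sets called. With the set as a block, 5 of 27 passed (Lama4, Fn1, Thy1 and Muc1 up, Mertk down), against 2.74% of all probe sets. Itgb1, the integrin chain common to many galectin-binding integrins, was at 0.21 (adjusted p = 0.824). Partners on blood cells had 0 of 20 risen and 1 fallen, Cd79a, a chain of the B cell receptor (-1.08, adjusted p = 0.0227), against 0.743% of all probe sets risen and 0.877% fallen. Cd79a was at 3.38 ± 0.25 in G-CSF arrays and 4.46 ± 0.43 in PBS arrays, below the median level of every array (5.12 to 5.22). The surrogate light chain genes Igll1 and Vpreb1, whose products form the pre-B cell receptor bound by that of Lgals1, had changes of -0.55 (adjusted p = 0.507) and -0.58 (adjusted p = 0.674), which were -0.26 and -0.25 without PBS replicate 3; Vpreb2, the other such gene of the list, was at 0.14 (adjusted p = 0.955). B cell markers, which include Cd79a, Igll1 and Vpreb1 but not Vpreb2, had a mean of 4.76 to 5.07 in G-CSF arrays over 9 measured. In PBS arrays that mean was 5.37 to 5.66, and the part of such cells in these values was not tested. Ptprc (CD45), a glycoprotein of all white blood cells, had a change of 0.67 (adjusted p = 0.230, and 0.0472 without G-CSF replicate 2), and Havcr2, which encodes Tim-3, of -0.06 (adjusted p = 0.979). Of 15 partners in the response to damaged lysosomes, 0 rose and 1 fell, Tfrc, the transferrin receptor (-0.79, adjusted p = 0.0395), against 0.877% of all probe sets fallen. The erythroid list also holds Tfrc, and its mean was lower in G-CSF arrays (4.84 ± 0.15) than in PBS arrays (5.77 ± 0.43), without overlap; the part of erythroid cells in the Tfrc value was not tested. The calls of Lama4 (all but PBS replicate 4 and G-CSF replicate 2), Cd79a (all but PBS replicate 3 and G-CSF replicate 5) and Tfrc (all but PBS replicate 3) were lost when any 1 other array was left out, at adjusted p of up to 0.0938, 0.0748 and 0.117.

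**Figure D4:**
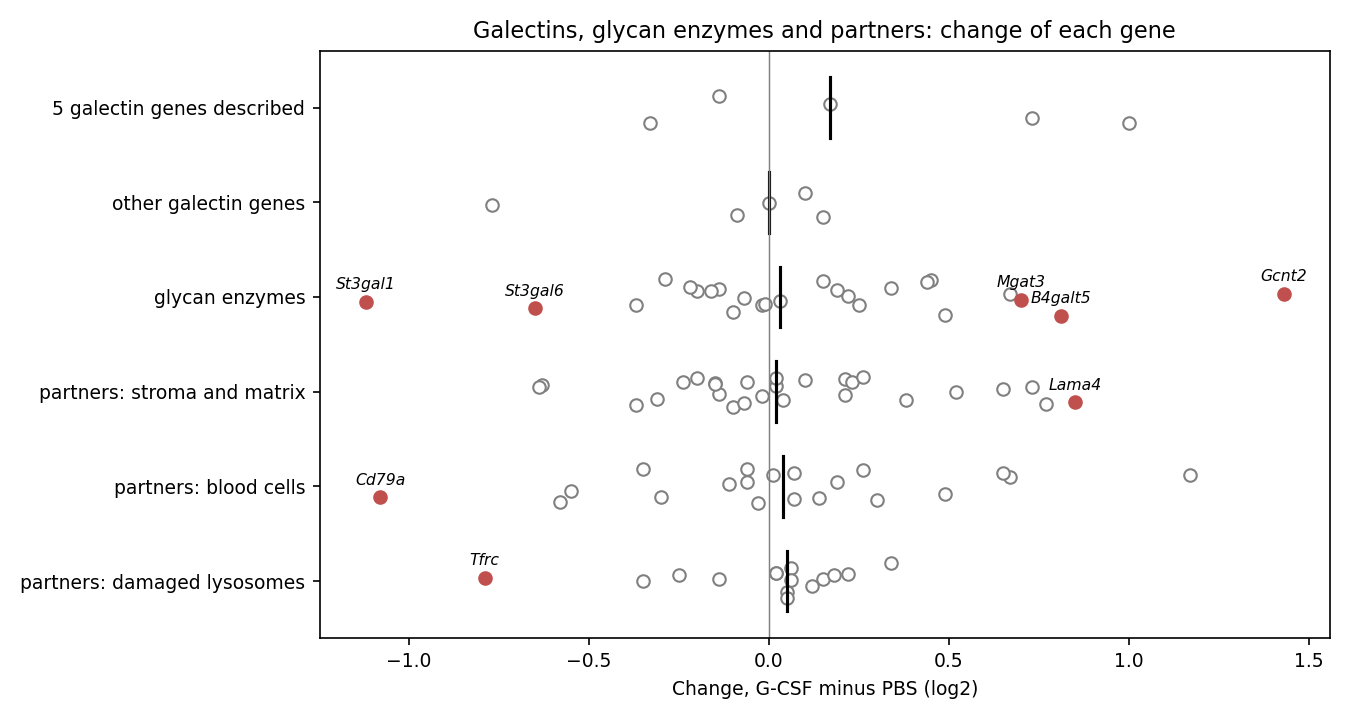
Change of every measured gene (x axis, G-CSF minus PBS, log2) in the 5 galectin genes described, the other galectin genes and 4 lists of glycan enzymes and partners; filled points passed at adjusted p under 0.05 and are named, open points did not, and vertical bars are list medians. No galectin gene is filled, against 5 of 25 glycan enzymes. Genes and lists were chosen with earlier results of these data known.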

How the data were processed

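RNA of 9 sorted samples was measured on Mouse Gene 1.0 ST arrays after amplification, per the labels' protocols. The deposited intensity values were RMA values that the authors computed with Expression Console of Affymetrix (per the submitters' processing notes); versions and the genome build of the probe sets are not given in the sources used here. Values of 1.73 to 15673.09 and array medians of 34.72 to 37.24 show a linear scale, so log2 was taken. RMA scales arrays toward a shared distribution, so differences are relative to other transcripts, and the number of arrays limits the precision. The spread of the deposited values still differed. The interquartile range of log2 values was 2.45 in PBS replicate 3 and 2.71 to 2.99 in the other arrays. It was 2.79 to 2.99 in set 1 and 2.45 to 2.76 in set 2. After quantile normalisation the Lgals1 change was 0.98 and the Lgals9 change 0.15.

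Groups and replicate numbers came from the titles. The titles call the samples biological replicates without naming animals or pools, so p-values cover no more than the spread among these samples, which may be technical. Of 35553 probe sets, 21789 had 1 symbol in the platform table and were tested, 1621 had several and 12143 had none. G-CSF was compared with PBS by limma 3.58.1 (R 4.3.3; lmFit, eBayes, two-sided, no covariates) with Benjamini-Hochberg adjustment over all of them; the steps were tested on simulated data. For a gene with several probe sets, the one with the highest mean stood for it. The text names the 5 members, the other galectin genes, list members past the threshold (at most 6 a list), 7 key genes, and the 3 genes most alike in profile per member with an SD of at least 0.5. Called genes of the cell type lists, Cxcl12, Lepr, Vpreb2, and genes called only in an alternative fit were added after their values were seen. The members and the 14 lists were chosen with earlier results of these data known. Alternatives were all probe sets, bright probe sets, eBayes with trend and robust settings, quantile normalisation, median centring, array weights, the replicate number or array set as a block, each set alone, G-CSF replicates 4 and 5 averaged and each array left out; the set block without PBS replicate 3 was chosen after seeing the data.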

Additional observations from a re-analysis of the deposited data

Results flagged for a closer look

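Of 50 groups of 4 or 5 arrays examined for the genes named, 1 held an array far from the others, where chance gives about 1 in 20: Mgat5 in PBS replicate 3, at 6.28, with the next PBS array at 6.90. Without it the Mgat5 change was 0.29, against 0.45 with it.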

How the results depend on the processing

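None of the 5 galectin genes passed the threshold in any fit run, and Lgals1, Lgals3 and Lgals3bp kept their signs in all 21 alternatives. Without single arrays Lgals1 was at 0.54 to 1.32. Lgals8 turned positive with array weights (0.07), in array set 1 (0.08) and without PBS replicate 4 (0.05, against -0.36 without PBS replicate 1); Lgals9 turned negative in set 1 (-0.07), with the set block without PBS replicate 3 (-0.02) and without that array (-0.01, against 0.26 without PBS replicate 4). Lgals4, at 0.00, was at 0.00 after median centring, -0.17 with array weights and in set 1, -0.04 with the replicate block, -0.05 with the set block, -0.16 with that block without PBS replicate 3, and -0.18 to 0.13 without single arrays; Vpreb1 was at 0.01 in set 1. No gene named here from the galectin family was called in any fit.

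The count of probe sets called, 353, was 181 with all probe sets, 180 with the replicate block, 598 with the set block (622 without PBS replicate 3), 202 in set 1, 59 in set 2 and 210 to 318 without single arrays; the sets alone hold fewer arrays. The 5 glycan enzymes were 2 with all probe sets, with the replicate block or with G-CSF replicates 4 and 5 averaged, 1 in either set and 2 to 5 without single arrays. The count of partners of stroma and matrix, 1 (Lama4), was 0 with all probe sets, the replicate block, either set or the average, 2 with array weights (Lama4, and Mertk, which fell), 5 with the set block (3 without PBS replicate 3) and 0 to 1 without single arrays, where without PBS replicate 3 the 1 was Mertk. The count of partners on blood cells, 1 (Cd79a), was 0 with all probe sets, with bright probe sets and in set 2, and 0 to 1 without single arrays; the 1 was Itgam, which rose, without PBS replicate 2, and Ptprc, which rose, without G-CSF replicate 2. The count of partners in lysosome damage, 1 (Tfrc), was 0 with all or bright probe sets, quantile normalisation, median centring, the replicate block, either set or the average, and 0 to 1 without single arrays. Testing all probe sets adds tests to the adjustment. Cd79a and Tfrc were left out of the fit of bright probe sets, since their mean log2 level was below 6. For the other fits the cause was not tested.

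The labels do not say that replicate numbers pair the samples. Same-numbered deviations from group means correlated at 0.28, 0.14, -0.28 and 0.35 for replicates 1 to 4. So few values cannot decide whether the numbers pair samples, and the G-CSF and PBS arrays of replicate 3 lie in different array sets. With the replicate block Lgals1 was at 1.15 and Lgals3 at 0.84 (adjusted p = 0.340 and 0.268 in limma). G-CSF replicates 4 and 5 were the closest pair of a group (median absolute log2 difference 0.192, against 0.235 to 0.475 for the others). Each member has 1 probe set, so another of the same gene could not be tried. The 95% intervals of the changes reach from 0.81 (Lgals3bp) to 1.82 (Lgals1) in width, which is the precision these arrays give; signal over background cannot be judged without detection calls.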
